A study of Homo sapiens with 6 samples.

Results

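Iron storage and uptake genes are the 10 genes FTH1, FTL, TFRC, SLC11A2, SLC40A1, IREB2, ACO1, NCOA4, HMOX1 and GPX4. They were taken by symbol, each as 1 of the 51103 gene rows of the tables. The libraries are polyA RNA of 2 human gastric cancer lines, AGS from an adenocarcinoma and HGC-27 from a carcinoma of undifferentiated type. Each line had 2 libraries of cells carrying a lentivirus for NINJ1 overexpression and 1 library of a negative control, 6 in all, from cells lysed after 48 hours in 6-well plates. All cells grew in DMEM with serum and antibiotics. The promoter of the transgene, the content of the control virus and whether a line was 1 clone are not given in the sources used here. NINJ1 (ninjurin-1) is an adhesion protein of the cell surface that also breaks the plasma membrane in lytic cell death.

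Cells take up transferrin-bound iron through the transferrin receptor (TFRC), move it out of the endosome through DMT1 (SLC11A2) and store it in ferritin, a shell of heavy (FTH1) and light (FTL) chains. NCOA4 carries ferritin to the lysosome to free its iron, ferroportin (SLC40A1) exports iron, and heme oxygenase 1 (HMOX1) releases it from heme. When iron is scarce, the iron regulatory proteins ACO1 (IRP1) and IREB2 (IRP2) bind hairpins named iron-responsive elements, which blocks translation of ferritin and ferroportin and stabilises the TFRC message. GPX4 reduces lipid peroxides and so restrains ferroptosis, an iron-dependent form of cell death. Much of this control acts on translation and protein stability, which RNA counts do not measure.

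The hairpins are shown because they tie the storage, uptake and export genes to the same 2 regulators. A motif of a bulged C, 5 bases, the loop CAGUGN and 5 bases that pair with the first 5 (G-U pairs allowed) was searched on the transcript strand of GENCODE 29 transcripts (GRCh38). It occurred in 3 of 8 genes searched over all their coding transcripts, each time in the gene's longest one. FTH1 and HMOX1 were not searched, for lack of a sequence entry. Among 19684 protein-coding genes, 1.31% held it in their longest coding transcript. Capitals mark the bulged C and the loop.
FTL, 5′ UTR, chr19:48965335-48965364, plus strand: cucuugCuucaaCAGUGUuuggacggaaca
SLC40A1, 5′ UTR, chr2:189580660-189580689, minus strand: caacuuCagcuaCAGUGUuagcuaaguuug
TFRC, 3′ UTR, chr3:196050978-196051007, minus strand: aauuauCggaagCAGUGCcuuccauaauua
TFRC, 3′ UTR, chr3:196050574-196050603, minus strand: cauuauCgggagCAGUGUcuuccauaaugu
TFRC, 3′ UTR, chr3:196050509-196050538, minus strand: cuguauCggagaCAGUGAucuccauauguu
TFRC, 3′ UTR, chr3:196050462-196050491, minus strand: aauuauCgggaaCAGUGUuucccauaauuu
The match in FTL and the match in SLC40A1 lie before the coding region, and the 4 in TFRC lie after it. A match is a description of letters and not a measured site. The motif was strict, so a gene without a match may still hold such a hairpin.

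The 2 replicate 2 libraries labelled NINJ1 carry 1 line in their title and the other in their file name. Here the file name sets the line, so AGS replicate 2 is the library titled HGC-27 and HGC-27 replicate 2 the one titled AGS. Total counts ran from 12619684 to 18175697. The HGC-27 control stood apart, with 19371 genes with a count against 22839 to 23396 in the other libraries, and 2.31% of its counts in genes over 60% GC, against 9.25% to 11.3%. NINJ1 itself had 19.5 and 15.9 CPM (counts scaled by library total and TMM factor) in the AGS libraries labelled NINJ1, against 28.4 in the AGS control, which goes against the label (edgeR quasi-likelihood test, log2 difference -0.68, SE 0.19, adjusted p = 0.0148). Here and throughout, edgeR's p is adjusted by Benjamini-Hochberg over 17617 tested genes and passes under 0.05. In HGC-27, NINJ1 had 17.3 and 19.1 CPM in the libraries labelled NINJ1, against 4.89 in the control (log2 difference 1.89, SE 0.24, adjusted p = 3.22e-08, and 0.61 with the GC correction described further on). The epithelial keratins KRT8 and KRT18 were present in every library (48.6 to 111 FPKM, which is a count per unit of gene length and of sequencing depth), CDH1 was at most 0.454 FPKM, and HBB and CD3E were at 0. Whether replicates came from separate cultures is not given in the sources used here, so a p-value covers no more than the spread among these libraries, which may be technical. By file name, STEAP4 had 0 and 0 counts in the AGS libraries labelled NINJ1 and 1 in the AGS control. In HGC-27 it had 758 and 660 counts, and 1697 in the control. FN1 had 0.265 and 0.257 FPKM in AGS and 0.770 in its control, against 5.29 and 5.50, and 9.13, in HGC-27. Both genes were picked after seeing their values, and which label is right was not tested. In bulk RNA, fewer cells of a kind and less RNA per cell cannot be told apart.

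Ferritin light chain was the most abundant of the 10 per unit length. FTL (GRCh38 chromosome 19, 48965301 to 48966878, plus strand) had 670.5 and 653 FPKM in the AGS libraries labelled NINJ1 and 524 FPKM in the AGS control. It had 1480.1 and 1789.9 FPKM in the HGC-27 libraries labelled NINJ1 and 264 FPKM in the HGC-27 control. By FPKM it ranked 10 and 8 among all genes in the HGC-27 libraries labelled NINJ1, and 76 in the HGC-27 control. FTH1, the heavy chain with the ferroxidase activity (chromosome 11, 61959718 to 61967660, minus strand), had 143 and 112 FPKM in the AGS libraries labelled NINJ1 and 228 FPKM in the AGS control. In HGC-27 it had 299 and 515 FPKM in the libraries labelled NINJ1 and 16.7 FPKM in the control. So the HGC-27 libraries labelled NINJ1 held the highest FTH1 levels and the HGC-27 control the lowest, with every AGS library in between. The FTH1 level was 21.3% and 17.1% of the FTL level in the AGS libraries labelled NINJ1 and 43.5% in the AGS control. It was 20.2% and 28.8% in the HGC-27 libraries labelled NINJ1 and 6.34% in the HGC-27 control.

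Levels of the transferrin receptor varied less than those of ferritin. TFRC (chromosome 3, 196027183 to 196082189, minus strand) had 143 and 129.9 FPKM in the AGS libraries labelled NINJ1 and 122 FPKM in the AGS control. It had 90.6 and 91.5 FPKM in the HGC-27 libraries labelled NINJ1 and 125 FPKM in the HGC-27 control. The HGC-27 libraries labelled NINJ1 were thus the lowest. The summed ferritin FPKM was 5.68 and 5.89 times the TFRC FPKM in the AGS libraries labelled NINJ1 and 6.14 times in the AGS control. It was 19.6 and 25.2 times in the HGC-27 libraries labelled NINJ1 and 2.25 times in the HGC-27 control. SLC11A2 (chromosome 12, 50979401 to 51028566, minus strand) lay between 12.1 and 20.2 FPKM. SLC40A1, the exporter (chromosome 2, 189560579 to 189583758, minus strand), had 0 counts in all 6 libraries, which allows up to 0.165 to 0.238 CPM per library, and it was not tested.

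The ferritin receptor NCOA4 (chromosome 10, 46005088 to 46030714, minus strand) had 52.8 and 54.5 FPKM in the AGS libraries labelled NINJ1 and 44.2 FPKM in the AGS control, against 95.9 and 90.4 FPKM and 145 FPKM in the matching HGC-27 libraries. The iron regulatory proteins were lower, IREB2 (chromosome 15, 78437431 to 78501456, plus strand) at 15.3 to 28.02 FPKM and ACO1 (chromosome 9, 32384603 to 32454769, plus strand) at 9.28 to 16.5 FPKM. HMOX1 (chromosome 22, 35380361 to 35394214, plus strand) had 5.14 and 5.20 FPKM in the AGS libraries labelled NINJ1 and 6.23 FPKM in the AGS control. Its HGC-27 levels were 9.73 and 16.0 FPKM in the libraries labelled NINJ1 and 1.10 FPKM in the control, where it rests on 48 counts. GPX4 (chromosome 19, 1103926 to 1106791, plus strand) had 67.3 to 83.1 FPKM in the other 5 libraries and 26.4 FPKM in the HGC-27 control. FTH1, FTL, HMOX1 and GPX4 were each lowest in the HGC-27 control by FPKM, and NCOA4, IREB2, SLC11A2 and ACO1 each highest there. With the GC correction used in the comparisons, this held for the other 6 but not for GPX4, at 234 CPM there against 90.1 to 118 elsewhere, nor for FTL, at 542.5 CPM there against 396 to 501 in the AGS libraries. The plot of FPKM by library shows the uncorrected levels.

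**Figure D1:**
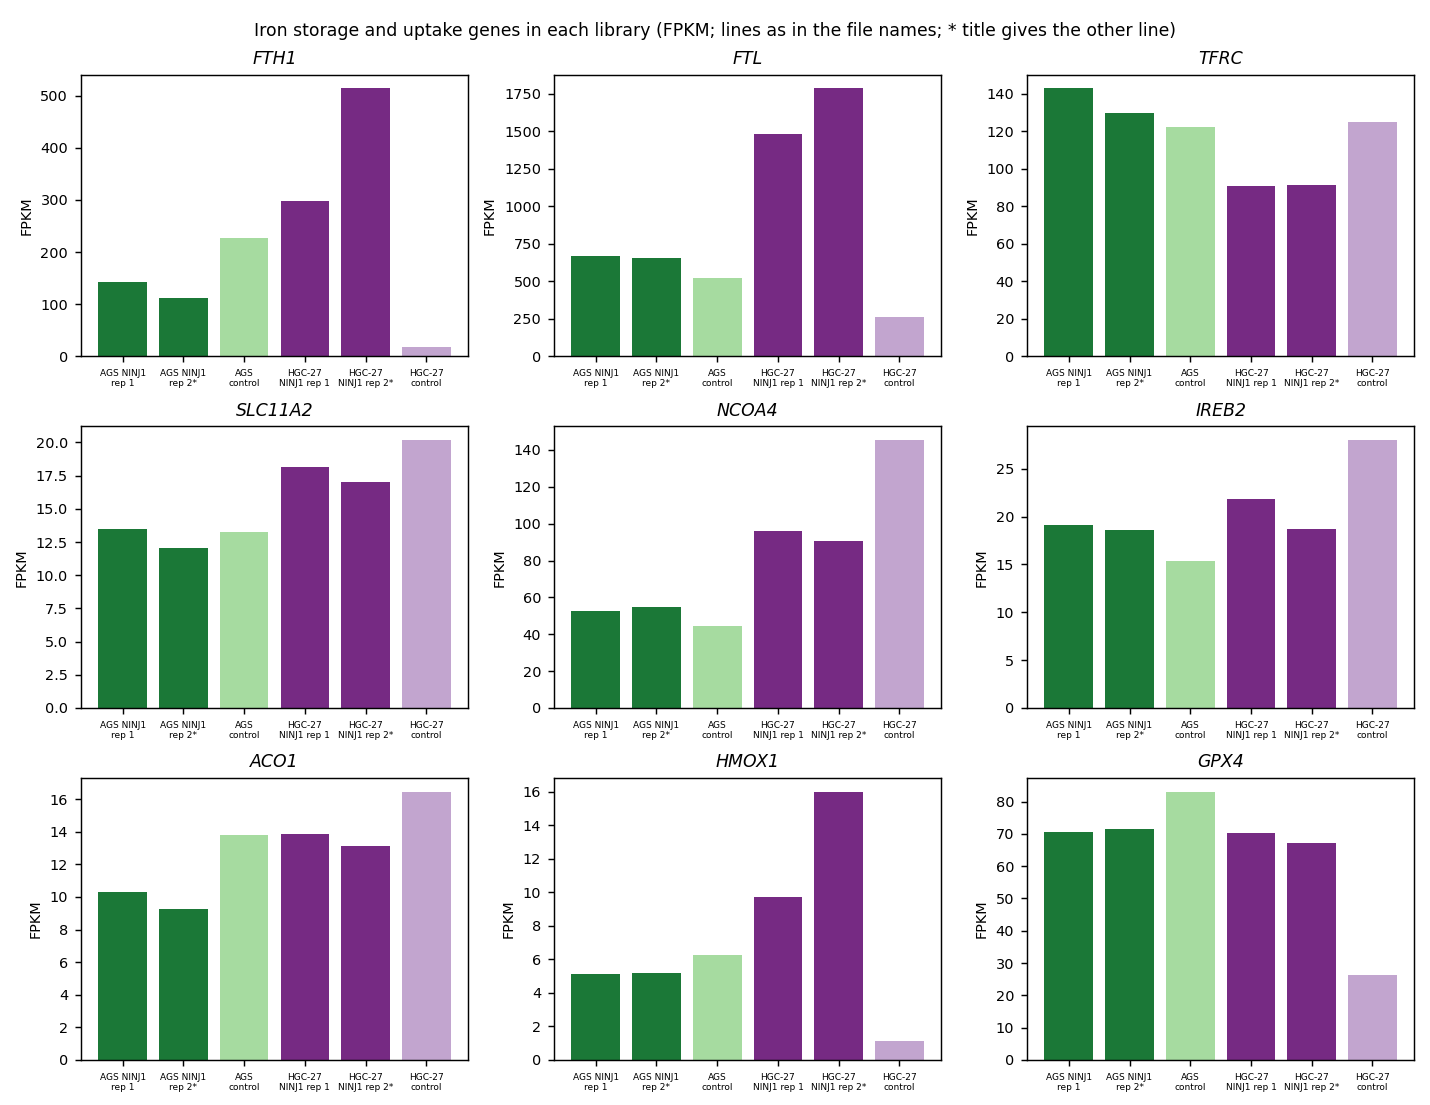
FPKM (vertical axis from 0) of the 9 members with counts in each of the 6 libraries, 1 bar per library, dark for libraries labelled NINJ1 and light for controls, AGS in green and HGC-27 in purple. FTH1 reaches 515 FPKM in HGC-27 NINJ1 replicate 2 and 16.7 FPKM in the HGC-27 control, while TFRC stays between 90.6 and 143 FPKM.

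Replicates of FTH1 and HMOX1 in HGC-27 differed more than those of most genes. The higher HGC-27 library labelled NINJ1 held 1.74 times the FTH1 CPM of the lower and 1.66 times the HMOX1 CPM, above 90.2% and 88.5% of the 17617 tested genes, whose median was 1.16. In both cases the library titled AGS was the higher. FTL differed 1.22-fold, and the other 6 tested members by at most 1.16-fold. In AGS the ratio was 1.26 for FTH1, 1.01 for FTL and 1.03 for HMOX1.

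The libraries labelled NINJ1 of the 2 lines were compared first, because that difference uses neither control. Both ferritin chains, HMOX1, NCOA4, SLC11A2 and ACO1 were lower in AGS than in HGC-27, and TFRC was higher. On the CPM scale FTH1 had 273 and 217 in AGS against 574 and 1000.3 in HGC-27. It was 3.21-fold lower in AGS (log2 difference -1.68, SE 0.15, edgeR adjusted p = 4.45e-11). FTL had 555 and 548 CPM against 1230.3 and 1503, 2.48-fold lower in AGS (log2 difference -1.31, SE 0.11, adjusted p = 5.84e-12). For both chains of the ferritin shell, the AGS libraries lay below the HGC-27 libraries, in a comparison that called 40.2% of all genes.

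HMOX1 had 11.7 and 11.9 CPM in AGS against 22.2 and 36.8 in HGC-27, 2.50-fold lower in AGS (log2 difference -1.32, SE 0.19, adjusted p = 7.45e-07). NCOA4 had 203 and 212 CPM against 370.5 and 353, 1.74-fold lower (log2 difference -0.80, SE 0.10, adjusted p = 1.09e-07). TFRC had 1064 and 979 CPM in AGS against 676 and 690.5 in HGC-27, 1.49-fold higher in AGS (log2 difference 0.58, SE 0.10, adjusted p = 1.87e-05). For these 3 genes too the libraries of the lines did not overlap. The share of all genes that separate likewise was not counted, so this is not a trait of the members. SLC11A2, with 129 and 117 CPM against 174 and 165, and ACO1, with 73.4 and 67.0 CPM against 99.0 and 95.0, were both lower by 0.47 on the log2 scale (SE 0.11 for each, adjusted p = 0.000582 and 0.000998). Without the AGS library titled HGC-27 neither of the last 2 passed (adjusted p = 0.0784 for SLC11A2 and 0.0868 for ACO1).

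IREB2, with 195 and 192 CPM in AGS against 224 and 194 in HGC-27 (log2 difference -0.11, SE 0.11, adjusted p = 0.443), and GPX4, with 134 and 138 CPM against 134 and 129.9 (0.046, SE 0.11, adjusted p = 0.761), did not pass. So 7 of 9 tested members differed, 6 lower and 1 higher in AGS, beside 40.2% of all genes, which split into 3552 higher and 3532 lower. The members' median log2 difference was -0.47 and that of all tested genes -0.0057. After a correction that removes each library's trend of log2 CPM with gene GC content, 8 of 9 passed beside 43.7% of all genes, the addition being IREB2 (log2 difference -0.21, adjusted p = 0.0291), with FTH1 at -1.65 and FTL at -1.23. Without the HGC-27 control in the fit, FTH1 was at -1.68 and FTL at -1.31. With the lines that the titles give, 0 of 9 members and 0 of 17617 genes passed (edgeR, 0 and 19 at an unadjusted p under 0.05), and FTH1 stood at 0.69. Each title group labelled NINJ1 holds 1 library of each line by file name. With treatment as an additive term over all 6 libraries, 0 of 9 members passed beside 1082 of 17617 genes (edgeR, 3 members at an unadjusted p under 0.05). Replicate 1 alone, whose titles and file names agree, gave 1 library against 1 without a test: -1.07 for FTH1, -1.15 for FTL, -0.92 for HMOX1, -0.87 for NCOA4 and 0.65 for TFRC.

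FTH1 and ACO1 were lower in the AGS libraries labelled NINJ1 than in the AGS control, and no other member passed the test. FTH1 had 273 and 217 CPM in the libraries labelled NINJ1, against 455 in the control, 1.86-fold lower (log2 difference -0.89, SE 0.18, edgeR adjusted p = 0.000470). This call was lost with DESeq2 (-0.91, adjusted p = 0.312) and with limma on log2(FPKM + 1) (-0.84, adjusted p = 0.146). ACO1, the cytosolic aconitase and IRP1, had 73.4 and 67.0 CPM against 103, 1.46-fold lower (log2 difference -0.55, SE 0.13, adjusted p = 0.00427). It did not pass without the library titled HGC-27 (-0.48, adjusted p = 0.170) or with limma (adjusted p = 0.0688). Both libraries labelled NINJ1 lay below the control for each gene. The share of all genes that did so was not counted, so this is not a trait of the members.

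FTL had 555 and 548 CPM in the AGS libraries labelled NINJ1, against 453 in the control (log2 difference 0.28, SE 0.13, adjusted p = 0.151). The 2 ferritin chains thus had differences of opposite sign in AGS, and that of FTL did not pass. TFRC (0.10), SLC11A2 (-0.11), IREB2 (0.24), NCOA4 (0.22), HMOX1 (-0.32) and GPX4 (-0.28) had adjusted p from 0.146 to 0.632. The count was 2 of 9, both lower, beside 15% of all genes (1010 higher, 1638 lower). With the GC correction it was 3 of 9 beside 18.2%, the addition being FTL (0.32, adjusted p = 0.0191). The spread in this test comes from both lines. Leaving out 1 library changed the count of members and also that of all genes called, as given in the closing section. With the titles' lines 0 of 9 passed beside 0 of 17617 genes (edgeR, 0 members at an unadjusted p under 0.05), and FTH1 stood at 0.48.

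In HGC-27, ferritin, HMOX1 and GPX4 were higher in the libraries labelled NINJ1 than in the control, and the uptake, ferritin-release and regulator genes were lower. All of these differences are from the control library that stood apart in GC content and gene number. FTH1 had 574 and 1000.3 CPM in the libraries labelled NINJ1, against 42.6 in the control, 18.5-fold higher (log2 difference 4.21, SE 0.23, edgeR adjusted p = 1.80e-16). FTL had 1230.3 and 1503 CPM against 290.4, 4.71-fold higher (log2 difference 2.23, SE 0.15, adjusted p = 9.67e-15). HMOX1 had 22.2 and 36.8 CPM against 3.31, 8.90-fold higher (log2 difference 3.15, SE 0.29, adjusted p = 2.85e-11). GPX4 had 134 and 129.9 CPM against 66.7, 1.98-fold higher (log2 difference 0.98, SE 0.14, adjusted p = 1.52e-07).

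The other 5 tested members were lower in the HGC-27 libraries labelled NINJ1. NCOA4 had 370.5 and 353 CPM in the HGC-27 libraries labelled NINJ1, against 743 in the control, and fell by 1.04 on the log2 scale (SE 0.12, adjusted p = 4.08e-09). TFRC had 676 and 690.5 CPM against 1235 and fell by 0.85 (SE 0.12, adjusted p = 2.00e-07). IREB2, ACO1 and SLC11A2 fell by 0.86, 0.68 and 0.60, with adjusted p from 3.46e-07 to 0.000113. The 9 of 9 calls, 4 higher and 5 lower, stand beside 63.0% of all genes (5985 higher, 5118 lower), whose median log2 difference was 0.12.

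The members' differences moved with the GC correction by unequal amounts. FTH1, whose longest transcript has 50.1% GC, had a log2 difference of 4.03 (SE 0.23, edgeR adjusted p = 3.03e-12). The correction moved its level in the HGC-27 control only from 42.6 to 46.3 CPM, so it was hardly a test for FTH1. FTL (56.3% GC) was at 1.10 (adjusted p = 4.16e-09) and HMOX1 (58.1% GC) at 1.70 (adjusted p = 1.66e-05), both nearer to 0 than before. GPX4 (62.5% GC) turned to -1.25 (adjusted p = 3.42e-09), with corrected levels of 107 and 90.1 CPM against 234. TFRC (-0.21, adjusted p = 0.0710), IREB2 (-0.12, adjusted p = 0.284) and SLC11A2 (-0.036, adjusted p = 0.784) no longer passed, while NCOA4 (-0.49, adjusted p = 8.67e-05) and ACO1 (-0.31, adjusted p = 0.0138) did. That left 6 of 9 calls, 3 in each direction, beside 48.9% of all genes. On log2(FPKM + 1) with limma, SLC11A2 and ACO1 did not pass (adjusted p = 0.208 and 0.0886). With the titles' lines, 0 of 9 passed beside 2149 of 17617 genes (edgeR, 5 members at an unadjusted p under 0.05). There FTH1 stood at 3.21 (adjusted p = 0.126). HGC-27 replicate 1 against the control, 1 library against 1 without a test, gave 3.75 for FTH1, 2.08 for FTL and 2.69 for HMOX1. The AGS control against the HGC-27 control gave 3.41, 0.64 and 2.11 for the same genes.

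The difference of the changes, AGS minus HGC-27, was tested in the same model. It passed for 8 of 9 members beside 54.2% of all genes, ACO1 being the exception (0.13, SE 0.19, adjusted p = 0.574). The value for FTH1 was -5.10 (SE 0.28, adjusted p = 5.42e-16) and with the GC correction -4.96. With that correction 5 members passed beside 35.0% of all genes: FTH1, FTL (-0.78), NCOA4 (0.62), HMOX1 (-1.95) and GPX4 (1.17, against -1.26 without it). Each value contains the HGC-27 control. Over both lines together, with line as an additive term, 0 of 9 members passed beside 0% of all genes (edgeR). At an unadjusted p under 0.05 there were 1 member and 2257 genes. That member was ACO1 (log2 difference -0.62, adjusted p = 0.368). DESeq2 called 0 members and 312 genes, and limma 0 of each. FTH1 was at 0.82 with an SE of 1.26 and FTL at 1.15 with an SE of 0.48. The plot of log2 differences sets the counts as deposited beside the GC-corrected values.

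**Figure D2:**
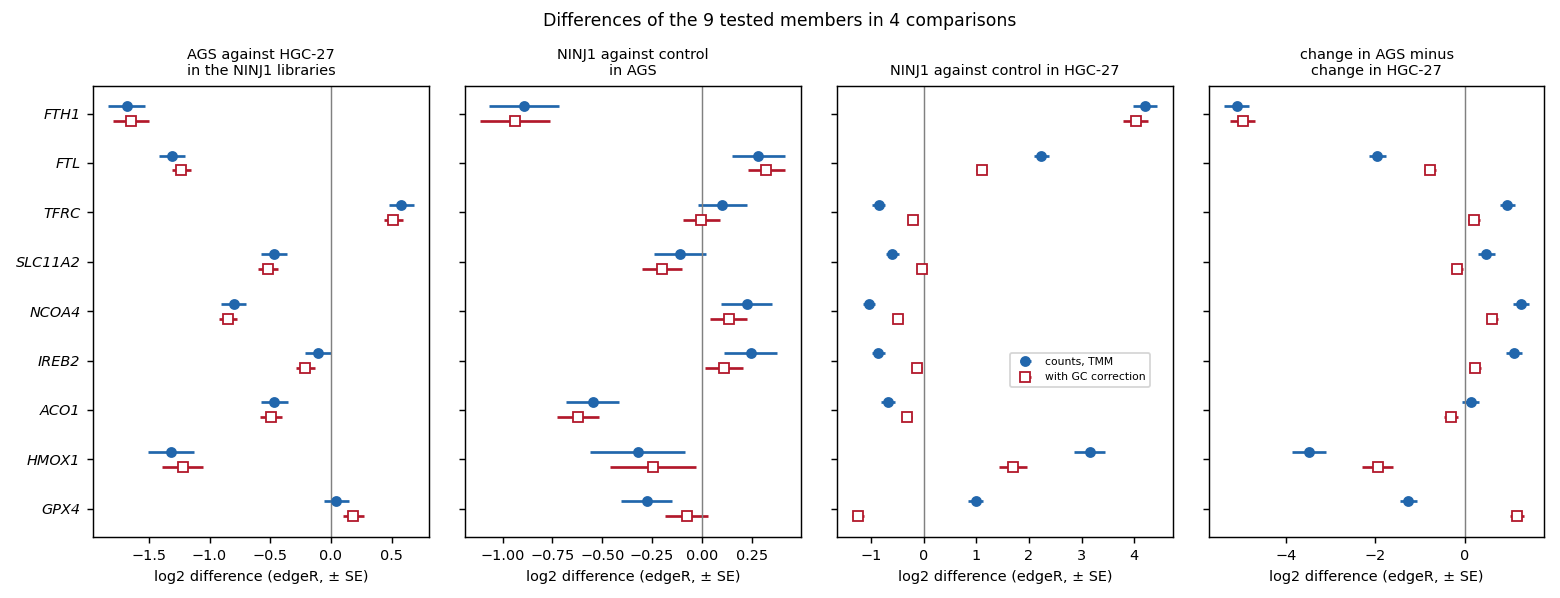
Log2 differences of the 9 tested members (rows) from edgeR with their SE (bars), in 4 comparisons, from counts with TMM scaling (filled circles) and with the GC correction (open squares); each panel has its own axis. FTH1 lies at -1.68, -0.89, 4.21 and -5.10 and keeps its side in all panels, whereas GPX4 moves from 0.98 to -1.25 with the correction in HGC-27.

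FTH1 has many processed pseudogenes, so its reads could be shared with them. The 25 rows whose symbols start with FTH1P held together 151 and 142 counts in the AGS libraries labelled NINJ1 and 108 in the AGS control. They held 191 and 113 counts in the HGC-27 libraries labelled NINJ1 and 165 in the HGC-27 control, with FTH1P8 the highest. Their sum did not follow the FTH1 counts, which were 3661 and 3019, 6448, 8776 and 15734, and 618 in the same order. It was 0.718% to 4.70% of the FTH1 count in the other libraries and 26.7% in the HGC-27 control. How the counting treated reads that match several copies is not given in the sources used here, so FTH1 levels are uncertain by what such reads hold. BEST1, a chloride channel gene on the opposite strand that overlaps an FTH1 exon, had 2 to 67 counts, and without a stated strand setting its reads cannot be told apart from those of FTH1 there. The FTL pseudogene rows, 16 in number, held at most 22 counts. The plot of FTH1 and pseudogene counts shows both on a log scale.

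**Figure D3:**
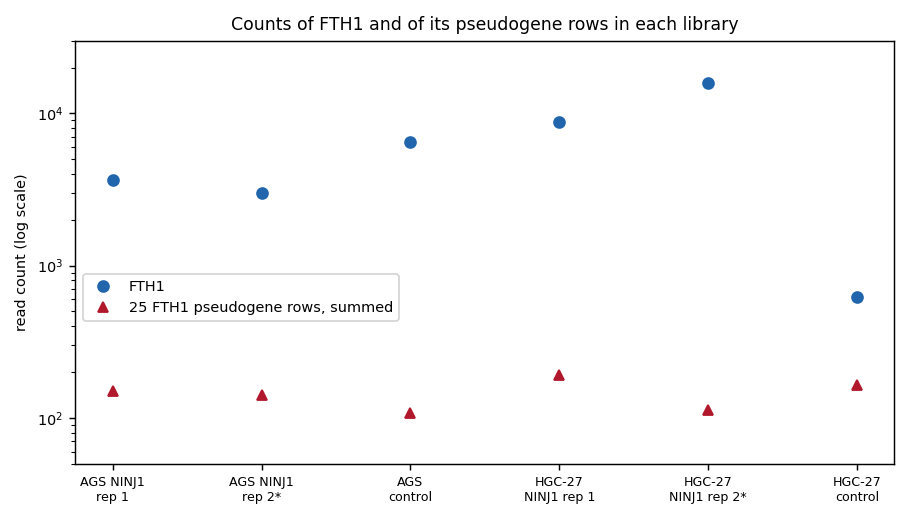
Read counts (log scale) of FTH1 (circles) and of its 25 pseudogene rows summed (triangles) in the 6 libraries; an asterisk marks libraries whose title gives the other line. FTH1 spans 618 to 15734 counts and the pseudogene sum 108 to 191.

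Other genes of iron handling were counted in 4 lists. Their counts are given beside the share of all genes called, which was 40.2% between AGS and HGC-27 in the libraries labelled NINJ1, and nothing is called particular to a list. Of 20 tested iron transport genes, the libraries labelled NINJ1 had 5 at higher and 8 at lower levels in AGS, relative to HGC-27 (median log2 difference -0.21). The metalloreductase STEAP4 had 0 and 0 counts in AGS against 758 and 660 in HGC-27, at least 208-fold lower with 3 counts allowed per AGS library, and 1 count in the AGS control against 1697 in the HGC-27 control. ABCG2, an exporter of heme and porphyrins, was lower by 1.70 on the log2 scale (adjusted p = 7.49e-08). PROM2, a pentaspan protein linked to export of ferritin in vesicles, was higher by 2.81 (adjusted p = 8.00e-08). Its levels were low, 3.81 and 4.89 CPM in AGS against 0.588 and 0.636 in HGC-27.

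Of 31 tested ferroptosis genes, 6 were higher and 14 lower in AGS (median -0.26, against -0.0057 over all genes), beside the same 40.2%. The 3 with the smallest p were all higher: BACH1, a heme-binding repressor of HMOX1 and the ferritin genes (248 and 239 CPM against 122 and 106, log2 difference 1.10, adjusted p = 3.42e-10), the cystine carrier SLC7A11 (0.94, adjusted p = 8.66e-09) and PTGS2, a cyclooxygenase (0.83, adjusted p = 5.11e-06). Iron regulation and handling, with 5 higher and 1 lower of 15, and iron-sulfur cluster and heme synthesis, with 4 higher and 5 lower of 25, were near that share. In the regulation list BMP6, an inducer of hepcidin in liver, was higher by 1.15 (adjusted p = 1.21e-09). In the synthesis list the scaffold ISCU was lower by 0.60 (adjusted p = 0.000186).

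Between the AGS libraries labelled NINJ1 and the AGS control, 15% of all genes were called. Beside that share, iron transport had 0 higher and 3 lower of 20: the ferroxidase ceruloplasmin (CP, 0.971 and 1.37 CPM against 10.2, log2 difference -3.11, adjusted p = 1.46e-07), PROM2 (-1.98, adjusted p = 5.08e-06) and the mitochondrial importer SLC25A37 (-0.43, adjusted p = 0.0168). Iron regulation had 0 higher and 1 lower of 15, the iron chaperone PCBP1 (-0.58, adjusted p = 0.0103). Heme and iron-sulfur synthesis had 5 higher and 1 lower of 25, among them ISCA1 (0.72, adjusted p = 0.000675), ALAD (0.64, adjusted p = 0.0111) and ALAS1, the first enzyme of heme synthesis (0.48, adjusted p = 0.0149). Ferroptosis genes had 6 higher and 4 lower of 31, with the glutathione synthesis subunit GCLM higher by 1.05 (151 and 160 CPM against 75.4, adjusted p = 1.04e-06), TXNRD1 higher by 0.61 (adjusted p = 0.000892) and PTGS2 lower (-1.08, adjusted p = 2.75e-06).

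Between the HGC-27 libraries labelled NINJ1 and the HGC-27 control, 63.0% of all genes were called, and 48.9% with the GC correction. Beside these shares, iron transport had 9 higher and 5 lower of 20, and 4 and 7 with the correction. The heme transporter SLC48A1 was higher by 2.70 and the metal importer SLC39A8 lower (-1.56), with corrected values of 1.29 and -1.12, and transferrin receptor 2 (TFR2) was higher by 2.46 but did not pass once corrected (0.31, adjusted p = 0.200). Iron regulation had 7 higher and 6 lower of 15, and 3 and 9 with the correction. Its PCBP1 was higher by 1.77 (0.82 corrected) and TAX1BP1, an autophagy receptor that works with NCOA4, lower (-0.90, and -0.79 corrected). Heme and iron-sulfur synthesis had 8 higher and 6 lower of 25, and 7 and 7 corrected. NUBP2, of cytosolic iron-sulfur assembly, was at 4.73 (2.83 corrected) and ALAD at 2.10 (1.57 corrected). Ferroptosis genes had 16 higher and 9 lower of 31 (median 0.52), and 12 and 8 corrected. The amino acid carrier SLC1A5 was higher by 3.41 (1.41 corrected), CHAC1, a glutathione-degrading enzyme, by 5.79 (3.56 corrected), and the lipid ligase ACSL4 was lower (-1.71, and -0.97 corrected). The plot of the 4 lists shows the 91 tested genes.

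**Figure D4:**
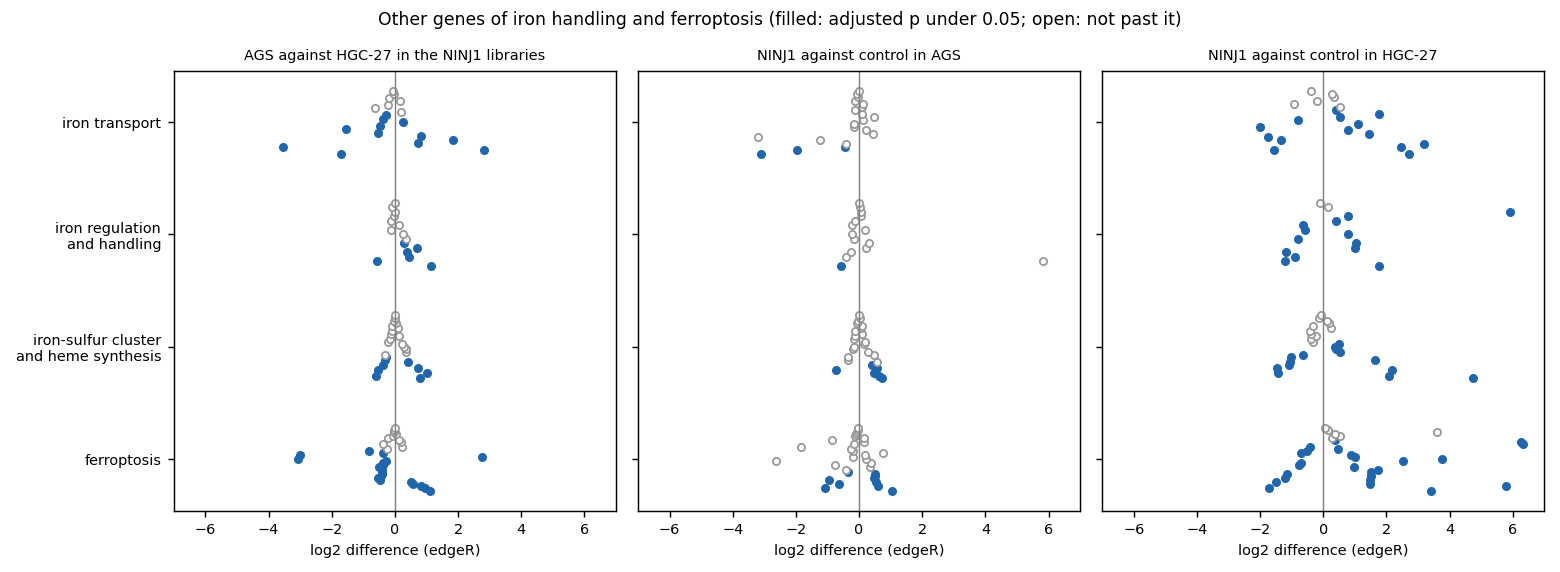
Log2 differences (edgeR) of 91 tested genes of 4 lists (rows) in 3 comparisons (panels), filled where the adjusted p is under 0.05; height within a row only separates points, and STEAP4 lies beyond the axis limit of 7 in the AGS against HGC-27 panel. The HGC-27 panel holds the most filled points and the AGS panel the fewest.

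The genes whose pattern over the 6 libraries was most like a member's were found among 8653 genes with at least 100 counts in every library, by the root mean square difference of centred log2 CPM. For FTH1 they were PPDPF (0.155), GPAA1 (0.319) and MSLN (0.326), with 64.3% to 68.2% GC. For FTL they were ZC3H3 (0.0954), RRP7A (0.105) and DHX34 (0.122). For TFRC they were POU2F1 (0.0522), NAMPT (0.0581) and WDR47 (0.0594), with 36.3% to 42.01% GC. For HMOX1 they were PRR12 (0.124), WDR81 (0.168) and GRIN2D (0.172), with 63.6% to 69.0% GC. The 6 libraries share lines, controls and the GC departure of the HGC-27 control, so such likeness is a description only.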

How the data were processed

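The libraries are polyA RNA prepared with a NEBNext Ultra kit from Trizol extracts, per the labels' protocols. The submitters' processing notes name HISAT2, HTSeq 0.13.5 and the build GRCh38. The annotation release and strand setting are not given in the sources used here. Each deposited table covers 1 library and 51103 genes, with the authors' unnormalized read counts and their FPKM, a count divided by gene length and library total, both named in the file headers. Coordinates and GC content came from GENCODE 29. Counts were tested with edgeR 4.0.16 in R 4.3.3: filterByExpr with a minimum count of 10 (17617 genes), TMM scaling, 1 mean per line and treatment, two-sided quasi-likelihood F tests, Benjamini-Hochberg adjusted p under 0.05 over all genes. CPM values are TMM-scaled. In this model the spread comes from the libraries labelled NINJ1, and the single control of each line is assumed to vary like them. The GC correction was a loess curve (span 0.3, genes with a mean count of at least 50) of each library's log2 CPM departure on GC, entered as an offset. The pipeline was tested on simulated counts. Alternatives used DESeq2 1.42.0 and limma 3.58.1 on log2(FPKM + 1), with FPKM of at least 1 in 2 libraries. Same-numbered libraries of the lines did not deviate together (r = 0.0084 across genes), and the main model did not pair them by number. With 2 pairs this cannot exclude a batch shared by number. Named genes were the members, NINJ1, up to 3 genes per list with the smallest p (some are not reported here), pseudogene rows and 3 nearest patterns for 4 members. Members and lists were chosen with earlier results of these data known, so they are not independent evidence. Limits from 0 counts (3 counts) cover counting error only.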

Additional observations from a re-analysis of the deposited data

Results flagged for a closer look

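Of the 9 tested members, 8 differed between the lines in how the libraries labelled NINJ1 departed from their control (edgeR test of the difference of the log2 changes, AGS minus HGC-27). The values were -5.10 for FTH1, -1.95 for FTL, -3.48 for HMOX1, -1.26 for GPX4, 0.96 for TFRC, 0.49 for SLC11A2, 1.11 for IREB2 and 1.26 for NCOA4, with adjusted p from 5.42e-16 to 0.0247. Among all genes 54.2% passed the same test. With the GC correction the values were -4.96, -0.78, -1.95, 1.17, 0.21, -0.17, 0.23 and 0.62 in the same order, and TFRC, SLC11A2 and IREB2 did not pass. The HGC-27 control enters every one of these values, and with 1 control per line what set that library apart cannot be told apart from the treatment. For FTH1 that control held 618 counts, against 3019 to 15734 in the other libraries.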

How the results depend on the processing

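With the titles' lines 0 members passed in any comparison (edgeR, 0 to 5 at an unadjusted p under 0.05), and 2149 genes passed in HGC-27, against 11103. FTH1 (0.69), FTL (0.21), SLC11A2 (0.015), ACO1 (0.021), HMOX1 (0.51) and GPX4 (-0.044) changed sign between AGS and HGC-27, and FTH1 (0.48), TFRC (-0.12), SLC11A2 (0.15) and HMOX1 (0.72) within AGS. With treatment as an additive term, 0 members and 1082 genes differed between lines, against 7084. Within AGS, DESeq2 called 1 member (1308 genes), limma 0 (3 unadjusted, 950 genes), against 2648 genes, and leaving out 1 library gave 1 to 6 members (935 to 4712 genes). The GC correction left 5 members in the difference of changes (6167 genes, against 9547) and turned GPX4 in HGC-27 (-1.25), in the difference (1.17) and over both lines (-0.70), TFRC within AGS (-0.0019, and -0.0039 without the HGC-27 control, an alternative chosen after seeing the data), and SLC11A2 (-0.17) and ACO1 (-0.30) in the difference. Limma turned ACO1 there (-0.19). Over both lines, 0 members and 0 genes passed in the main fit and when any 1 library labelled NINJ1 was left out. DESeq2 called 312 genes and the GC correction 365, with 0 members each. Without the only control of 1 line, the treatment term rests on the other line alone. Such a fit repeats the comparison within that other line and is no alternative for both lines. With any 1 library left out, these fits included, log2 values ran from -0.89 to 4.26 for FTH1, -0.80 to 0.11 for TFRC and -0.81 to 0.25 for IREB2. They ran from -0.98 to 0.23 for NCOA4, -0.32 to 3.21 for HMOX1 and -0.27 to 1.04 for GPX4. Replicate number as a block over the libraries labelled NINJ1 called 7 members and 7188 genes, and 9 members with the GC correction. The count of 9 stands here without the count of all genes in that fit, so it does not set the members apart. Whether the replicate numbers pair the libraries is not settled. Of the members' single values under 18 alternatives, 476 kept direction and side of the threshold, 44 lost the call, 23 gained it and 24 changed sign. The causes were not tested. Precision is limited by 1 control per line and, for HMOX1 in the HGC-27 control, by 48 counts.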
